A study of Mus musculus with 20 samples.

Results

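The comparison set 5 XY gonad pairs of the hybrid (B6x129S1)F1 against 5 of the inbred strain C57BL/6J, that is 10 of the 20 arrays of the series. Arrays were chosen by the strain named in their titles, and no measured value entered that choice. Each array held RNA from 1 pair of gonads of embryonic day 11.5 (17 to 21 tail somites), freed of the mesonephros and labelled with Cy5. The Cy3 channel of every array held the same reference pool, made of gonads and whole embryos of both sexes from matings of Sox9-ECFP (C57BL/6J) with CD-1 mice. The hybrid carried 1 genome of C57BL/6J and 1 of 129S1/SvImJ, and no group carried an experimental mutation or treatment. Both inbred strains came from The Jackson Laboratory, and the labels do not state which strain was the mother of a cross. The other groups of the series, 129S1/SvImJ and the opposite cross (129S1xB6)F1 with 5 arrays each, entered the fit, are given for position, and in the last paragraph the opposite cross is tested against (B6x129S1)F1.

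At this stage the gonad of the mouse can still form a testis or an ovary. In XY embryos the Y-linked gene Sry switches on Sox9 in supporting cells, and Fgf9, Amh and Dhh follow as these become Sertoli cells. The ovary pathway runs through Wnt4 and Rspo1, which stabilise beta-catenin and switch on genes such as Axin2, Sp5 and Fst. Primordial germ cells sit among these cells and carry their own pluripotency and transposon-silencing genes. C57BL/6J is a strain known for XY sex reversal with some Y chromosomes, and the series asked how its XY gonad differs at this stage from that of other strains.

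A level below is the log2 ratio of gonad to reference signal on an array, and a difference is the mean of (B6x129S1)F1 minus the mean of C57BL/6J, with the standard error (SE) of a limma fit over all 20 arrays. Calls were made where the Benjamini-Hochberg adjusted p of that fit lay under 0.05. Values for C57BL/6J are given in the order of arrays H1, H2, H3, H4 and K2, and values for (B6x129S1)F1 in the order C2, C3, C4, E1 and F2. Array values measure bulk tissue, so fewer cells of a type and less RNA per cell cannot be told apart. Each group was drawn from more than 1 litter, and whether the letters in the array names mark litters is not stated.

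The promoter stretches shown here are matches picked from some of the gene lists below. They were read from RefSeq promoters of build GRCm38.p6, within the 250 bases before the transcription start. The first pair shows a motif of interferon-stimulated genes in capitals, GAAA followed after any 2 bases by GAAA, searched on both strands. It was present for 11 of the 15 genes of the interferon list with a promoter in the table, beside 3.46% of all 27025 genes there.
Isg15: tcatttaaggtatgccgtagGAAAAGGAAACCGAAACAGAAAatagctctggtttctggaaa
Ifit1: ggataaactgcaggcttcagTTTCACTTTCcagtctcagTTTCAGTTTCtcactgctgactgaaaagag
The Isg15 stretch lies at chr4:156200855-156200916 on the minus strand and holds 3 overlapping matches. The Ifit1 stretch lies at chr19:34640765-34640833 on the plus strand and holds 2 matches. The next pair shows the letters CTTTGAT or CTTTGAA, which TCF and LEF factors bind downstream of WNT, and which stood in 4 of 9 promoters of WNT targets, beside 8.63% of all genes.
Sp5: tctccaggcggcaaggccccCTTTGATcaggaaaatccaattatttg
Tnfrsf19: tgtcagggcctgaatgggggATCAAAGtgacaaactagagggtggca
The Sp5 stretch is chr2:70474799-70474845 (plus strand) and the Tnfrsf19 stretch chr14:61038163-61038209 (minus strand). The last shows the E-box CACGTG, held by 6 of 13 promoters of germ cell RNA-binding and transposon-silencing genes, beside 6.86% of all genes.
Mael: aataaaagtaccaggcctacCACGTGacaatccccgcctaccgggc
The Mael stretch is chr1:166238942-166238987 (minus strand). None of the 9 promoters of pluripotency genes and none of the 14 of female pathway genes searched for their motif held it. In the meiosis list 3 of 10 held the E-box. Mael alone of the 6 E-box genes was called below, and neither interferon gene called is among the 11 with a match. The called genes Axin2, Rnf43, Tex19.1, Tdrd12, Asz1, Smc1b, Rec8 and Zfp42 had no match, nor had another Tnfrsf19 promoter. Whether a motif goes with the calls was not tested, and the matches are descriptions of sequence and not of binding.

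Some arrays stood apart within their group. C57BL/6J array H1 carried liver and yolk sac transcripts. Its mean over 14 such genes, a list drawn up after the values were seen, was 1.97, beside -2.80 to -2.01 on the other 9 arrays. Afp, the fetal albumin, read 2.78 on H1 and -6.34 to -5.09 on the other C57BL/6J arrays. Array H4 of the same strain carried an interferon response, described below. Array K2, the one C57BL/6J array with another letter, had male pathway levels nearer to those of the hybrid, and hybrid array E1 had the lowest male levels of its group. Slides 2, 3 and 4 each held 1 array of both groups (F2 with H2, C3 with K2, C2 with H4), whereas H1 and H3 shared slide 1 and C4 and E1 shared slide 5. The share of gene spots well above background in Cy5 was 81.7% to 86.5% over the 10 arrays. The labelled tissue was borne out by its markers, since Wt1 read 3.95 to 4.72, Gata4 1.99 to 3.72 and Nr5a1 0.77 to 2.91 above the reference, and these did not pass the test.

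Of 23351 genes tested, 422 (1.81%) were called, 216 higher (0.925%) and 206 lower (0.882%) in (B6x129S1)F1. At least 2-fold differences were called for 157 genes, 105 higher and 52 lower. The median difference over all genes tested was 0.02, with 12525 above and 10826 below 0, and the 5 arrays of one group did not overlap with the 5 of the other for 893 genes (3.82%). Higher calls made up 51.2% of the calls, 39.5% when no background was subtracted, 61.5% with slide as a block and 85.4% on slides 2 to 4 alone, where 41 genes were called. The number of calls was 217 without array C4, 249 without H2, 255 without H3 and 273 without F2. It was 416 without H4, 496 without K2 and 344 without H1. With the letter of the array name as a random block (consensus correlation 0.143) 174 genes were called. Of the genes named below, slide as a block ended the calls of Vxn, Asz1, Usp18, Slitrk1, Slc7a2, Sh2d4a, Rab27b, Bmp2, Tnfrsf19, Wnt9a and Etv4. The letter block ended those of Vxn, Fbln2, Asz1, Usp18, Slitrk1, Axin2, Sh2d4a, Rab27b, Bmp2, Rnf43, Tnfrsf19, Wnt9a, Mael, Smc1b, Lhx1, Ndrg1, Etv4 and Uba1y. With normexp background correction and loess the calls of Vxn, Asz1, Usp18, Slitrk1, Sall3, Axin2, Sh2d4a, Rab27b, Bmp2, Rnf43, Lhx1, Prim2 and Etv4 were lost. Without background subtraction those of Pnpla3, Vxn, Asz1, Tmem87a, Usp18, Slitrk1, Sall3, Axin2, Sh2d4a, Bmp2, Rnf43 and Etv4 were lost. The size of a difference also moved with the background setting. Of 41 named genes called, 13 had a log2 difference smaller by over 1.5 times with normexp and 28 without background subtraction, and the direction held in 41 and 41. Folds below are those of the deposited processed signals.

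The genes highest in the hybrid were mixed in function. These and the lowest genes were taken from calls whose arrays did not overlap, so their separation follows from that choice. Clone names and accessions were passed over, 7 among the higher and 4 among the lower genes. H2-Bl, a non-classical major histocompatibility gene, differed most among the names kept. Its levels were -1.39, -1.32, -0.75, -2.36 and -1.05 in C57BL/6J and 2.98, 2.60, 2.49, 3.25 and 2.22 in the hybrid, a log2 difference of 4.08 ± 0.30 (SE, limma adjusted p = 1.8e-07). The groups lay far apart on every array, but its probe was above background on only 3 C57BL/6J arrays. Its difference was 2.27 with normexp and 0.88 without background subtraction, both called, so its size is not settled. A probe that shares 30 bases with it gave 3.92, and the remaining probe of the gene gave 0.62. Cox7c, a subunit of cytochrome oxidase, read -1.75, -1.72, -1.98, -1.49 and -1.29 in C57BL/6J and 0.83, 1.05, 0.55, 0.61 and 0.64 in the hybrid. That difference of 2.38 ± 0.18 (adjusted p = 1.8e-07) was 2.36, 2.33 and 2.32 within slides 2, 3 and 4. Rbm45, an RNA-binding protein gene, was higher by 2.49 ± 0.21 (adjusted p = 8.3e-07), by 1.67 with normexp and by 0.63 without background subtraction. All 5 hybrid arrays lay between 2.75 and 3.21 and all C57BL/6J arrays between -0.28 and 1.21.

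Pnpla3, which encodes a lipase of lipid droplets, was not well above background on any C57BL/6J array and was so on 4 hybrid arrays. On the processed signals it was at least 4.62-fold higher in the hybrid (means set against the lowest detectable signal, adjusted p = 0.0002). Its log2 difference was 0.74 with normexp and 0.19 without background subtraction (adjusted p = 0.085), so that bound holds for the processed signals only, and the call was also lost on slides 2 to 4. Vxn, a neural differentiation gene, differed by 2.53 ± 0.58 (adjusted p = 0.025), with array K2 the highest of C57BL/6J at -2.22, and its call was lost without any 1 of C2, C3, C4, F2, H1, H2 or H3. Pam, an enzyme that amidates peptides, rose by 2.04 ± 0.25 on its brightest probe, while its other probes gave 0.34 and 0.01. Fbln2, an extracellular matrix glycoprotein gene, rose by 1.89 ± 0.42 (adjusted p = 0.021; not called without C2, C4, F2, H2 or H3), and Tmem87a, a Golgi membrane protein gene, by 1.81 ± 0.21 (adjusted p = 3.8e-05).

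Among the names kept of genes lowest in the hybrid, Rec8, a cohesin subunit of meiosis, came first. It read 2.26, 1.96, 2.44, 2.70 and 1.40 in C57BL/6J and 0.35, -0.22, -0.27, 0.32 and -0.15 in the hybrid. The groups did not overlap and Rec8 fell by 2.15 (SE 0.22, adjusted p = 9.9e-06); its other probe gave -0.98. Slitrk1, a neuronal membrane protein gene, fell by 1.67 (SE 0.36, adjusted p = 0.019; not called without C4, F2, H2 or H3), and Slc7a2, a transporter of cationic amino acids, by 1.29 (SE 0.26, adjusted p = 0.011). Lypd6b fell by 1.52 (SE 0.24), Sh2d4a by 1.27 (SE 0.32) and Rab27b, a GTPase of secretion, by 1.27 (SE 0.28). The probe of Rab27b was above background on 3 hybrid arrays. The call of Sh2d4a was kept only without H4, and that of Rab27b was lost without C3, C4, F2, H2 or H3. Sall3 fell by 1.34 (SE 0.24) on its brightest probe and its other probe gave -0.07.

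**Figure D1:**
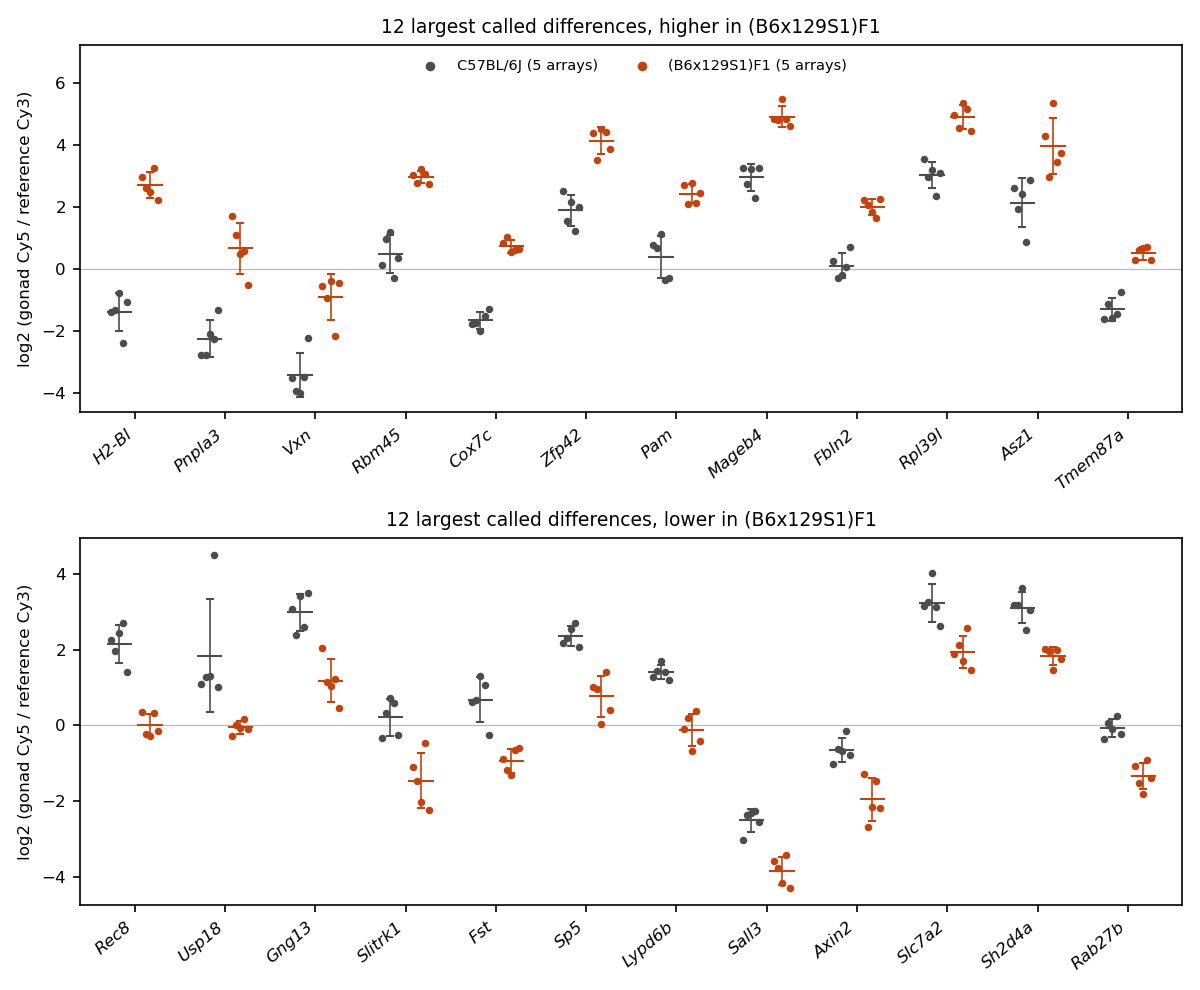
Levels (log2 of gonad Cy5 over reference Cy3) of the 12 largest called differences in each direction whose arrays did not overlap; each point is 1 array, bars are group means and whiskers the SD over 5 arrays. Clone names and accessions were passed over. By the choice of calls without overlap all arrays of one group lie above all of the other in each gene. For Usp18 one C57BL/6J array, H4, sits at 4.50 while the other 4 lie between 1.00 and 1.30.

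Some genes of the ovary pathway fell in the hybrid. Of 17 tested members of the female list, 4 were called, all lower (Gng13, Fst, Axin2 and Bmp2), beside 0.882% of all genes called lower, 6 members lay above 0, and the median difference was -0.45, beside 0.02 over all genes. The gene lists here and below were chosen with earlier results of these data known. Their share of calls is therefore no independent evidence. Fst, the activin antagonist follistatin that marks the early ovary, read 0.62, 0.67, 1.30, 1.06 and -0.26 in C57BL/6J and -0.88, -1.19, -1.32, -0.66 and -0.60 in the hybrid. Every hybrid array lay below every C57BL/6J array, although K2 came close. The difference was -1.61 ± 0.28 (adjusted p = 0.0026), or -0.49 without background subtraction, and -1.85 ± 0.25 without K2 and -1.51 ± 0.29 without H4, each called.

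Gng13, a G protein gamma subunit, fell by 1.81 (SE 0.28, adjusted p = 0.00091). Its levels were 3.06, 2.38, 3.41, 2.59 and 3.49 against 2.05, 1.14, 1.03, 1.22 and 0.45. The 60 bases that measured it read as follows.
Gng13 probe: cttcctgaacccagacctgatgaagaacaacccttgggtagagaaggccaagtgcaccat
Bmp2, a ligand of the early ovary, was 2.29-fold lower (SE 0.27 on the log2 scale, adjusted p = 0.025), with 1.34, 1.69, 2.05, 1.20 and 1.11 against 0.28, 0.05, 0.06, 0.70 and 0.34. Its groups did not overlap, and its call was lost with slide as a block and without C2, C3, C4, F2, H2 or H3. The upstream signals of the pathway did not pass the test. Wnt4 differed by -0.83 ± 0.23 (adjusted p = 0.075) and Rspo1 by -0.67 ± 0.19 (adjusted p = 0.074), each with overlapping arrays. Foxl2, a transcription factor of later granulosa cells, stood near the reference in both groups (0.06 and 0.25), and Nr0b1 had means of 5.66 and 5.64. Without K2 the list held 6 called genes, with Wnt4 and Msx1 added, without E1 it held 7, without C4 3, and on slides 2 to 4 alone 1 (Axin2). Calls over all 23351 genes were 496, 490, 217 and 41 in these settings. K2 had the lowest mean of this list in C57BL/6J (0.79) and E1 the highest in the hybrid (0.70). Leaving out either thus widens the differences, and the added calls are no added support.

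Some WNT targets fell as well. Axin2, Lef1 and Lgr5 are also members of the female list, so the call of Axin2 counts in both. Of 16 tested, 4 were called, all lower (Sp5, Axin2, Tnfrsf19 and Rnf43), beside 0.882% of all genes, 12 lay below 0 and the median was -0.26. On slides 2 to 4 alone Axin2 was the one called. Sp5, a transcription factor and direct WNT target, read 2.18, 2.31, 2.53, 2.71 and 2.06 in C57BL/6J and 1.02, 0.96, 0.03, 1.41 and 0.40 in the hybrid. The lowest C57BL/6J array stood above the highest hybrid array, and the fall was 1.59 (SE 0.24, adjusted p = 0.00076). Axin2, a negative feedback gene of the pathway, read -1.02, -0.63, -0.67, -0.14 and -0.77 against -1.29, -2.67, -2.14, -1.47 and -2.19. It fell by 1.30 (SE 0.26, adjusted p = 0.011), and with normexp and loess in place of the deposited processing by 0.53 (adjusted p = 0.099), which ended the call. Without background subtraction the difference of Axin2 was -0.15 (limma adjusted p = 0.068), also not called. The Axin2 probe was well above background on only 3 hybrid arrays.

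Rnf43, a ligase that removes WNT receptors, fell by 1.08 (SE 0.25, adjusted p = 0.026), and Tnfrsf19, a receptor of the tumour necrosis factor family, by 1.11 (SE 0.26, adjusted p = 0.032). Leaving out any 1 of C2, C3, C4, H2, H3 or H4 ended the call of Rnf43, and any 1 of C2, C3, C4, F2, H1, H2 or H3 that of Tnfrsf19. Dkk1, an antagonist of WNT, went the other way with 1.08 ± 0.48, which was not called (adjusted p = 0.36). Of 28 ligands, receptors and modulators tested, Wnt9a alone was called, beside 0.882% of all genes called lower. It fell by 0.72 (SE 0.15, adjusted p = 0.012) on its brightest probe, while its other probe gave 0.09. The median of those 28 was -0.05. Within slides 2, 3 and 4 the median of the WNT targets was -0.13, -0.50 and -0.45, and that of the female list -0.74, -0.12 and -0.52.

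None of the 26 genes of the testis pathway tested was called, beside 1.81% of all genes. Of these 26, 20 had a difference above 0 and the median was 0.60, beside 0.02 over all genes. Sry read 0.38, 0.85, 0.92, 0.83 and -0.29 in C57BL/6J and 0.39, 0.00, 0.42, 1.03 and 0.46 in the hybrid, and Sox9 had group means of 0.65 ± 0.49 (SD) and 0.78 ± 0.40. Both groups overlapped for both genes, with differences of -0.07 ± 0.22 and 0.12 ± 0.38 (adjusted p = 0.93 for each). The probe of Sry was above background on 4 C57BL/6J and 3 hybrid arrays, which limits what its levels show. Dhh, the hedgehog ligand of Sertoli cells, read 3.04, 2.33, 1.43, 2.84 and 5.25 against 6.05, 5.81, 6.35, 4.16 and 6.19.

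Dhh thus lay low on 4 C57BL/6J arrays and high on 4 hybrid arrays, with K2 and E1 between, and its difference of 2.73 ± 0.84 missed the threshold (adjusted p = 0.12). Without K2 it was 3.30 ± 0.83 and was called (adjusted p = 0.043), as were Cbln4, higher (0.85), and Fgfr2, lower (-0.84). K2 was the C57BL/6J array with male levels nearest to the hybrid. Leaving it out thus widens these differences, and the calls are no added support. No male pathway gene was called without H1, H4 or C4. Amh, the anti-Müllerian hormone, read 0.21, -0.11, 0.20, -0.11 and 0.55 against 1.62, 0.92, 1.46, 0.12 and 1.07 (0.89 ± 0.29, adjusted p = 0.15). It was called without E1, its lowest hybrid array, and that choice widens the difference in the same way. Mro, a gene of the early testis, came nearest to the threshold (1.25 ± 0.34, adjusted p = 0.069). Arrays did not overlap for 3 of the 26 genes, Mro and Cst9 higher and Gadd45g lower, beside 3.82% of all genes. Fgf9 differed by 0.71 ± 0.37 and Sox8 by 0.52 ± 0.19, both not called. The other probe of Sox8 gave 2.26.

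Some members lay below 0 and did not pass the test on all arrays. Gadd45g, which acts upstream of Sry, gave -0.45 ± 0.13 (adjusted p = 0.083) and Fgfr2, the receptor of FGF9, -0.66 ± 0.18 (adjusted p = 0.077). The male median was 0.80 within slide 2, 0.01 within slide 3, which holds K2, and 0.85 within slide 4. Of 10 genes induced by FGF and ERK, Etv4 was called (1.14 ± 0.29, adjusted p = 0.047), beside 0.925% of all genes called higher, and their median was 0.15. That call was kept on leaving out H1 and lost on leaving out any other of the 10 arrays.

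**Figure D2:**
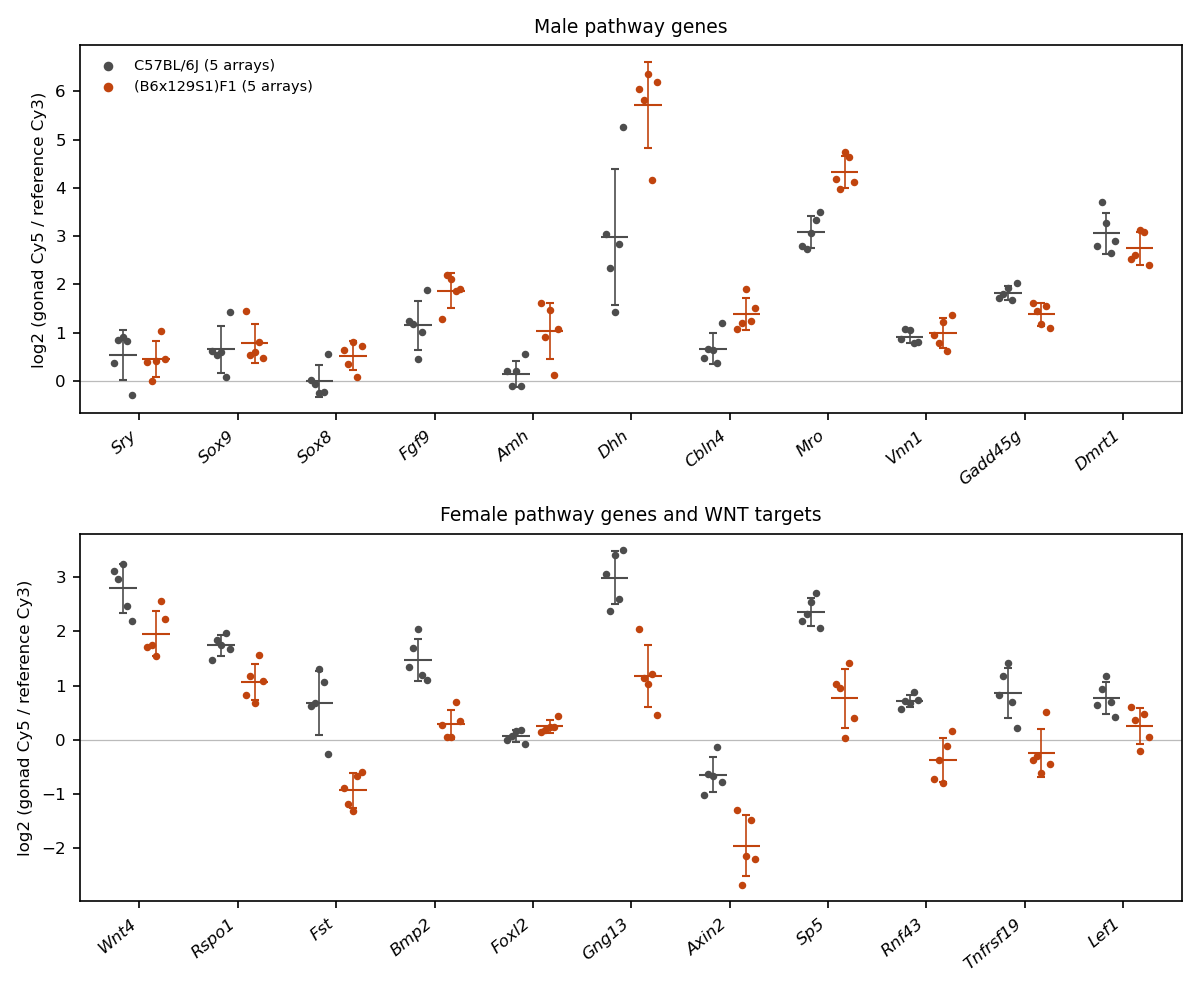
Levels (log2 of gonad Cy5 over reference Cy3) of male pathway genes (upper) and of female pathway genes and WNT targets (lower); points are arrays, bars group means and whiskers the SD over 5 arrays. Sry and Sox9 overlap between the groups, and the C57BL/6J point of Dhh at 5.25 is array K2. Mro, Gadd45g, Fst, Bmp2, Gng13, Axin2, Sp5 and Rnf43 do not overlap.

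Regulators of the bipotential gonad gave no call among 17 tested, beside 1.81% of all genes called, with a median of -0.13. Emx2, needed for the gonad to form, came nearest. It read 2.07, 2.82, 2.47, 2.36 and 2.95 against 1.34, 1.99, 1.41, 1.89 and 1.39, a difference of -0.93 ± 0.24 (adjusted p = 0.051), which was called with slide as a block (adjusted p = 0.031). The groups did not overlap. Cited2 gave -0.67 ± 0.18 and Gata4 -0.62 ± 0.32. Steroidogenic genes had a median of 0.13 over 11 and no call, with Hsd3b1 at 0.74 ± 0.19 (adjusted p = 0.057) and Cyp11a1 at -0.58 ± 0.36. Interstitial and hedgehog target genes had a median of 0.14 over 11 and no call, the hedgehog targets Ptch1 and Gli1 differing by 0.16 and 0.15.

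Some germ cell genes rose in the hybrid. All 14 pluripotency genes tested lay above 0, with a median of 0.48, and 2 were called, beside 0.925% of all genes called higher. Zfp42, a zinc finger gene of pluripotent cells, read 2.51, 1.55, 2.17, 1.23 and 2.00 in C57BL/6J and 4.39, 3.53, 4.50, 4.41 and 3.87 in the hybrid, a difference of 2.25 ± 0.30 (adjusted p = 0.00023), or 1.15 without background subtraction. The other probe of Zfp42, which shares 20 bases with the probe used, gave 4.39. Dppa5a, a germ and stem cell RNA-binding gene, read 5.37, 4.69, 5.11, 4.24 and 4.29 against 5.90, 5.69, 6.39, 6.03 and 6.02 (1.26 ± 0.25, adjusted p = 0.0085). Each hybrid array stood above each C57BL/6J array for both genes, while Pou5f1 (0.77), Nanog (0.41) and Kit (0.40), defining markers of these cells, were not called.

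Of 16 RNA-binding and transposon-silencing genes tested, 13 lay above 0, the median was 0.59 and 4 were called, all higher (Asz1, Tex19.1, Tdrd12 and Mael), beside 0.925% of all genes. Tex19.1, a germline gene that restrains retrotransposons, read 3.86, 2.96, 3.17, 2.72 and 3.27 against 4.62, 4.40, 5.26, 4.99 and 4.47 (1.55 ± 0.23, adjusted p = 0.00077). Tdrd12, a piRNA pathway gene, read 3.32, 3.00, 2.96, 2.19 and 3.12 against 3.83, 3.95, 4.70, 4.24 and 4.02 (1.23 ± 0.23, adjusted p = 0.006, other probe 0.54). Neither overlapped between the groups, and H4 was the lowest C57BL/6J array in both. Mael rose by 1.18 ± 0.25 (adjusted p = 0.017) and Asz1 by 1.82 ± 0.45 (adjusted p = 0.043), and the call of Asz1 was lost without C2, C4, F2, H1, H2, H3 or H4 and that of Mael without C4. Without K2 the list held 6 called genes, with Ddx4 and Rnf17 added, without C4 it held 2, and on slides 2 to 4 alone 0, where 1 pluripotency gene, Zfp42, was called. Calls over all 23351 genes were 496, 217 and 41 in these settings. K2 had the highest Ddx4 level of C57BL/6J (4.34), so leaving it out widens that difference.

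The mean of that list over its genes was 0.85 to 1.43 on C57BL/6J arrays and 1.69 to 2.16 on hybrid arrays, and for pluripotency genes it was 1.08 to 1.74 against 1.77 to 2.34. Medians within slides 2, 3 and 4 were 0.65, 0.23 and 0.81 for the former and 0.48, 0.23 and 1.04 for the latter. The opposite cross (129S1xB6)F1 had list means of 1.89 ± 0.20 (SD) and 2.22 ± 0.12, and 129S1/SvImJ of 1.50 ± 0.24 and 1.77 ± 0.12. In meiosis genes the directions were split. Smc1b, a cohesin subunit like Rec8, rose by 1.24 ± 0.27 (adjusted p = 0.019; not called without C4) whereas Rec8 fell, Dmc1 gave -0.70 ± 0.18 (adjusted p = 0.051) and Stra8, the gene that opens meiosis, 0.12. Sycp1, Sycp2 and Sycp3 were below the filter.

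**Figure D3:**
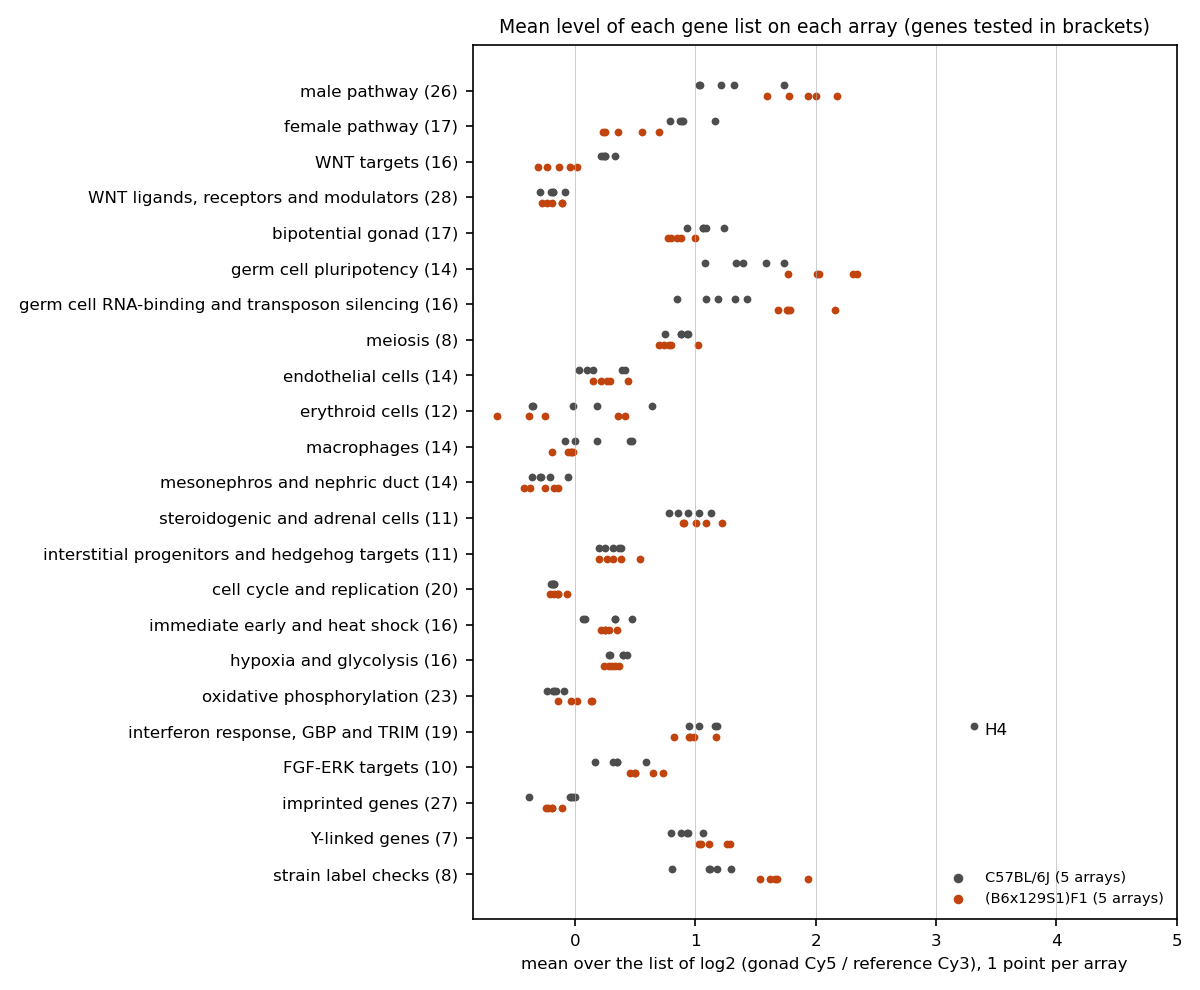
Mean over each gene list of the log2 ratio of gonad Cy5 to reference Cy3, 1 point per array, with the number of genes tested in brackets. The female pathway, WNT target and both germ cell lists do not overlap between C57BL/6J and (B6x129S1)F1, and array H4 stands at 3.32 in the interferon list.

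The interferon genes were far higher on 1 C57BL/6J array, H4. Of 19 tested, 2 were called, both lower, beside 0.882% of all genes. On H4 stood the highest value of 16 among the C57BL/6J arrays, and 10 lay at least 2 log2 units above the mean of the other 4; the members named next were chosen after their values were seen. Isg15, a ubiquitin-like modifier, read 4.95 on H4 and 0.23 to 0.89 on the other C57BL/6J arrays. Mx2 read 5.03 there and 0.36 to 0.92 elsewhere, Ifit1 3.93 and 0.11 to 0.25, and Gbp3 7.18 and 1.53 to 2.67. The median difference of the list was -0.85 with H4 and -0.18 without it, beside -2.91 within slide 4 and -0.24 and -0.05 within slides 2 and 3.

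Still, 2 members were called with and without that array. Usp18, a protease that removes Isg15, read 1.10, 1.28, 1.30, 4.50 and 1.00 in C57BL/6J and -0.29, 0.01, -0.06, 0.18 and -0.09 in the hybrid. The 4 other C57BL/6J arrays lay close together and above all hybrid arrays. Its difference was -1.89 ± 0.44 (adjusted p = 0.03) with H4 and -1.22 ± 0.12 (adjusted p = 9.6e-06) without, and was not called without C2, C3, C4 or F2. Trim12a, of the TRIM5 family of antiviral ligases, read 2.88, 2.41, 2.92, 3.86 and 2.79 against 2.23, 1.58, 1.79, 1.63 and 1.52, a difference of -1.22 ± 0.22 (adjusted p = 0.0037) and it was also called without H4 (adjusted p = 0.0046). Without H4, Oas1a was called lower (-0.54 ± 0.13) and Irf1 higher (0.61 ± 0.12) as well.

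**Figure D4:**
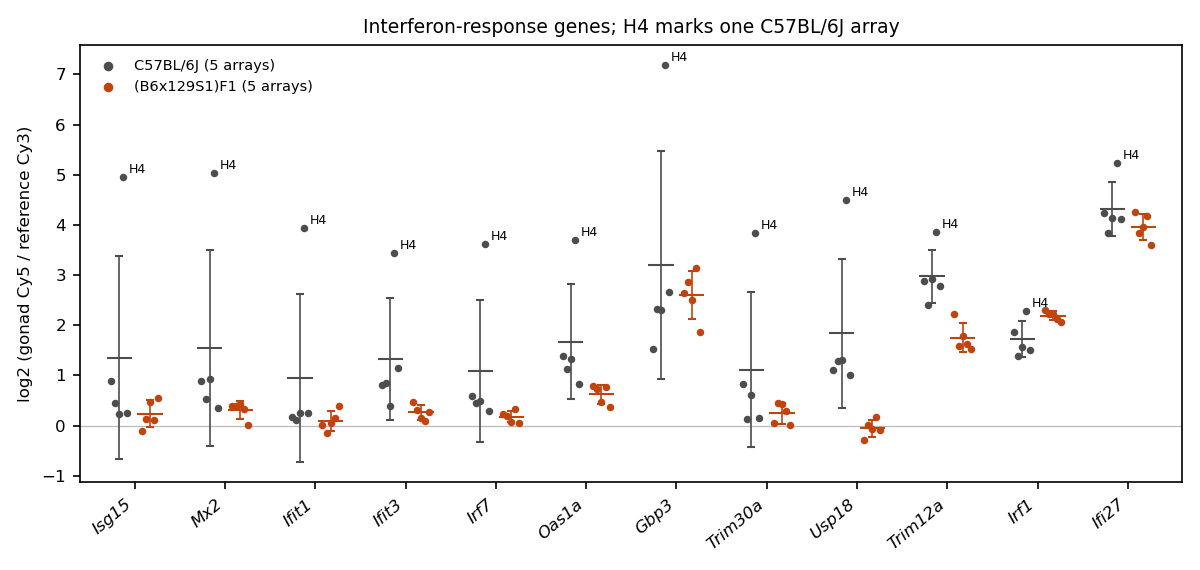
Levels (log2 of gonad Cy5 over reference Cy3) of 12 interferon-response genes by array, with group means as bars and the SD over 5 arrays as whiskers; H4 labels the same C57BL/6J array in each gene. H4 reads 4.95 for Isg15 and 7.18 for Gbp3, while for Usp18 and Trim12a the other C57BL/6J arrays also lie above the hybrid.

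Markers of other cell types gave few calls, beside 1.81% of all genes called, a share at which lists this short hold few or none. Of 14 macrophage genes none was called, 12 lay below 0 and the median was -0.28. The mean of these genes was -0.08 to 0.47 on C57BL/6J arrays, highest on H1 and H4, and -0.19 to -0.02 on hybrid arrays. Csf1r and Adgre1, the defining receptors, were above background on all 10 arrays (0.08 to 0.91 and 0.20 to 0.94) and differed by -0.07 and -0.10. The part of macrophages in the interferon values was not tested. Endothelial genes had a median of 0.08 over 14 and erythroid genes of -0.13 over 12, both without a call. The 14 mesonephric genes had a median of -0.03, with the defining Pax2 at 0.16, and Lhx1 was the one called (0.58 ± 0.14, adjusted p = 0.033), a call kept only without E1 or K2.

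General programmes also gave few calls, beside the same 1.81% of all genes, so these counts do not set them apart. Of 20 cell cycle genes Prim2 was called lower (-0.74 ± 0.12, adjusted p = 0.001), and its other probe gave -0.13. Immediate early genes gave no call among 16 and a median of 0.02. In the hypoxia list Ndrg1 fell by 0.61 (SE 0.14, adjusted p = 0.024; not called without C2, C3, C4, H2 or H3) and the median was -0.02 over 16. Of 23 genes of oxidative phosphorylation 18 lay above 0 with a median of 0.12, Cox7c being the one called. No imprinted gene was called among 27, and Zim1, a maternally expressed zinc finger gene, came nearest (-0.98 ± 0.28, adjusted p = 0.081).

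The X chromosome had 10 calls among 622 genes tested (1.61%), and the autosomes had 336 among 17253 genes of known position (1.95%). Between autosomes the share ran from 0.789% on chromosome 19 to 3.05% on chromosome 13. Mageb4, an X-linked germ cell gene, read 3.27, 2.74, 3.24, 2.28 and 3.26 in C57BL/6J and 4.82, 4.80, 5.47, 4.85 and 4.60 in the hybrid (1.95 ± 0.23, adjusted p = 4e-05), a difference of 1.23 with normexp and 0.48 without background subtraction. Of 7 Y-linked genes tested Uba1y was called, beside 0.925% of all genes called higher. It read 3.40, 2.84, 2.80, 2.49 and 3.07 against 4.07, 3.99, 5.36, 4.70 and 4.71 (1.65 ± 0.35, adjusted p = 0.014), and was not called without C4. The groups did not overlap in either gene, while Kdm5d (-0.27) and Eif2s3y (0.22) were not called.

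Position between the strains was read from group means on the same scale. Every difference from C57BL/6J uses the same 5 arrays of it. Cox7c had means of -1.64 in C57BL/6J, 0.74 in the hybrid, 0.66 in the opposite cross and 1.34 in 129S1/SvImJ. Trim12a had 2.97, 1.75, 1.66 and -2.80, and Prim2 -0.09, -0.83, -0.92 and -4.02 in that order. In these 3 genes the hybrid mean lay between the strains.

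Rec8 had means of 2.15, 0.01, 0.69 and -0.59, also between. For Fst the order was 0.68, -0.93, -0.71 and -0.94, so the hybrid stood level with 129S1/SvImJ within the spread. Sp5 (2.36, 0.76, 1.75 and 1.05) and Axin2 (-0.65, -1.95, -0.85 and -1.50) had their lowest mean in this hybrid. Rpl39l, a testis-enriched ribosomal protein gene, had 3.03, 4.89, 4.81 and 3.92, with both hybrids above both strains, and Mageb4 had 2.96, 4.91, 3.95 and 3.37. The other probe of Rpl39l gave a difference of 0.95 between (B6x129S1)F1 and C57BL/6J, beside 1.86 on the probe used. Differences in sequence between the strains under the 60-base probes were not tested.

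A short list of genes that separated the strains in earlier results of these arrays served to check the labels, and is no independent evidence. Cbr1, a carbonyl reductase gene, rose by 1.39 ± 0.10 (adjusted p = 1.8e-07) and Myo6, a myosin gene, by 1.65 ± 0.19 (adjusted p = 3e-05). Kctd14 read 5.89 ± 0.32 (SD) in C57BL/6J, 5.71 ± 0.35 in the hybrid and 2.81 ± 0.59 in 129S1/SvImJ. Cbr1 and Myo6 separated hybrid from C57BL/6J on every array, whereas Kctd14 did not (-0.18 ± 0.23). Of the 8 genes of the list tested, only Cbr1 and Myo6 were called, beside 0.925% of all genes called higher. Gbp2b (1.39 ± 0.44, arrays overlapping), Nnt (0.14 ± 0.13) and Cbr3 (-0.30) were among those not called.

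**Figure D5:**
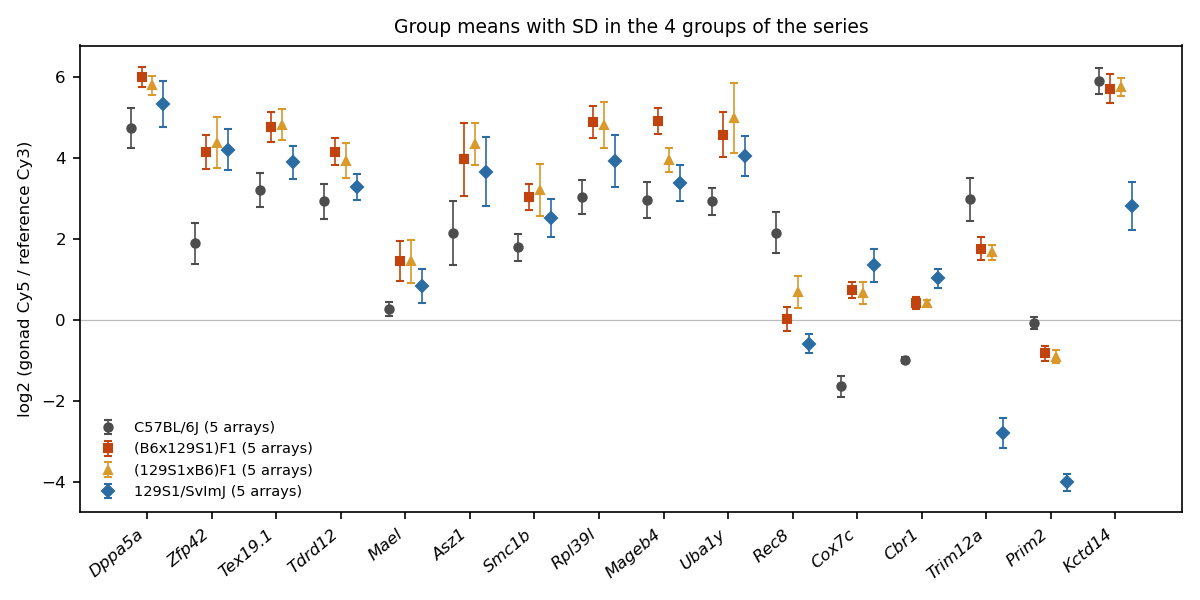
Mean log2 ratio of gonad Cy5 to reference Cy3 with the SD over 5 arrays in the 4 groups, for germ cell genes, for genes that separate the strains and for Uba1y, Rec8 and Cox7c. Prim2 and Trim12a lie lowest in 129S1/SvImJ with both hybrids between the strains, while Rpl39l and Tex19.1 lie highest in both hybrids.

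Set directly against the opposite cross, (B6x129S1)F1 differed in 2 of 23351 genes (0.00856%), Lancl3 and BC022654. The opposite cross shares its genome apart from the parent of origin and the sex chromosomes. An unadjusted limma p under 0.05 was found for 856 genes, fewer than that threshold passes on average where no gene differs. Lancl3 and BC022654 were named after their values were seen, and neither was called against C57BL/6J. The X-linked Lancl3 had means of 1.62 ± 0.33 (SD) in (B6x129S1)F1 and 4.49 ± 0.65 in (129S1xB6)F1, a difference of -2.88 (adjusted p = 0.00083), beside 1.13 ± 0.58 in C57BL/6J and 4.71 ± 0.72 in 129S1/SvImJ. Each cross thus stood with the strain named first in its label. BC022654 had 0.13 ± 0.12 against -0.82 ± 0.09. Sp5 (-0.98) and Axin2 (-1.10) were the WNT targets furthest apart between the crosses, and neither was called (adjusted p = 0.92 and 0.91).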

How the data were processed

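RNA of 20 single XY gonad pairs was hybridised on Agilent arrays with 2 colours, Cy5 for the gonad and Cy3 for a common reference, without dye swaps. The authors deposited scanner files with intensity values per spot, which per the file headers came from Agilent Feature Extraction 9.1.3.1 with background subtraction and dye normalisation of the processed signals. The authors also deposited a table of log2 ratios, used as an alternative only; its scale and direction matched the scanner ratios (r = 0.935 to 0.960 per array, column medians 0.0005 to 0.042), and its centring is not given in the sources used here. The log2 ratio of processed Cy5 over Cy3 was computed per probe, with control spots and outlier spots left out.

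The 41174 probes gave 27670 genes or names, named through RefSeq accession (22951), symbol (6659), synonym (3109) or the file (8455). The brightest probe stood for a gene. A gene was tested if its Cy5 signal passed the scanner's well-above-background flag on 4 or more of the 5 arrays of either group, 63 of them with a missing array. In R 4.3.3 with data.table (version 1.17.8), limma 3.58.1 fitted 4 groups to 20 arrays, with 16 residual and 3.37 prior degrees of freedom and a median SE of 0.146. The fit was tested on simulated data. The number of arrays limits precision. Whether arrays of one letter share a litter is not stated, and p-values measure the spread between these gonad pairs.

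Named genes were the 12 largest non-overlapping calls in each direction (7 and 4 clone names were passed over), called list members, up to 3 members per list of smallest p, and fixed sex-determination genes, of which Irx3 was below the filter. The members and lists were chosen with earlier results of these data known. Alternatives covered background correction, scaling, filters, probes, slide, scan day, letter, weights and left-out arrays.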

Additional observations from a re-analysis of the deposited data

Results flagged for a closer look

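In each group of 5 arrays, the highest or lowest value was compared with its nearest neighbour as a share of the group's range, with Dixon's critical value of 0.71. Chance passes it in about 1 of 20 groups, and 16 values stood out over 250 groups examined. In C57BL/6J, array H4 was high for Usp18 (4.50) and for the mean of the interferon genes (3.32), and low for the recombinase gene Dmc1 (0.72) and Sdhb (-0.86). Array K2 was high for Vxn (-2.22) and Prim2 (0.17), and low for Kctd14 (5.32) and the mean of imprinted genes (-0.38). In (B6x129S1)F1, array C4 was high for Mageb4 (5.47), Sox2 (-2.31) and the mean of the germ cell RNA-binding genes (2.16), and low for Fgfr2 (-0.88) and the mean of macrophage genes (-0.19). Array E1 was high for Tnfrsf19 (0.51) and low for Dhh (4.16), and array C2 was high for the replication gene Gins1 (-0.24).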

How the results depend on the processing

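Calls against C57BL/6J (422, with 216 higher, 206 lower and 157 at least 2-fold) depended on the setting, and the cause was not tested. Array weights gave 1078 (540 higher, 538 lower, 271 at least 2-fold). The letter as a random block gave 174 (102, 72 and 96), and slides 2 to 4 alone, with fewer arrays, 41 (35, 6 and 37). Normexp gave 142 higher and 76 at least 2-fold, and no background subtraction 126 and 31. Slide as a block gave 130 lower and scan day 117. The 2 calls between the crosses became 0 with normexp, 1 with the filter on all 20 arrays and 0 on slides 2 to 4. Leaving out 1 array gave 217 to 496 calls, 119 to 258 higher, 98 to 257 lower, 106 to 204 at least 2-fold, and 2 to 5 between the crosses, 5 without E1. Genes near 0 turned sign: Vnn1 to -0.021 (no background subtraction), Nr0b1 to 0.033 (the deposited log2 table), Eif2s3y to -0.0074 (slide or scan day as a block), Sry to 0.021 (letter), Pecam1 to -0.045 and Nr5a1 to 0.10 (slides 2 to 4). With 1 array left out Sry ran from -0.28 to 0.040, Sox9 from -0.046 to 0.32, Vnn1 from -0.025 to 0.16, Nr0b1 from -0.31 to 0.16, Nr5a1 from -0.53 to 0.0024 and Wt1 from -0.16 to 0.038. No paired analysis was possible because the groups compared share no replicate numbers in the labels; the fit on slides 2 to 4 pairs arrays by slide only. Dim probes limit H2-Bl, Pnpla3, Vxn, Sall3, Axin2, Rab27b and Sry.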
